A study of Mus musculus with 6 samples.

Results

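The potassium channel genes of mouse gastrocnemius, a mixed hindlimb muscle, were taken as all rows of the count table whose symbol begins with Kcn, with values in the 6 libraries and a mean raw count of at least 5. The rule gave 56 of the 84 Kcn genes with values, among 17034 genes in all. Just below the threshold lay Kcnq3, with a mean of 4.33 counts, and just above it Kcnab3 with 5.5 and Kcnip2 with 6.17. Polyadenylated RNA had been sequenced from 8-week-old male mice, 3 libraries per genotype. In the group labelled TRa_mKO, the Thra gene, which encodes thyroid hormone receptor alpha, was floxed and the animals carried Cre recombinase driven by Myf5, a gene active in early myogenic cells. Littermates labelled WT carried the same floxed copies without Cre, so both groups share the floxed allele. The RNA came from whole muscle, which also holds vessels, nerve and connective tissue.

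Library totals lay between 12390527 and 14488500 counts, and all libraries carry batch 1. The 6 fibre markers, Ckm and Acta1 among them, summed to 88700 to 125000 CPM (counts scaled to a common library size, after TMM), and the cardiac markers Nppa and Nppb were at or near 0. Thra itself was not lower in the libraries labelled TRa_mKO, at 78.8, 92.8 and 96.8 CPM in WT against 129, 118 and 101 CPM in TRa_mKO (edgeR, adjusted p = 0.117). A count over the whole gene includes exons that the deletion may leave, so it checks neither the deletion nor the labels, and every direction below rests on the labels. In bulk tissue, fewer cells of a type and less RNA per cell cannot be told apart.

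Potassium channels let potassium leave the muscle fibre, which sets the resting potential and ends the action potential. Voltage-gated channels open on depolarisation, calcium-activated channels on a rise of calcium, and inward rectifiers hold the resting potential or, with a sulfonylurea receptor, sense the ATP of the cell. Accessory subunits alter the gating, assembly or surface delivery of the pore subunits. In humans, an excess of thyroid hormone can bring on a periodic paralysis linked to inward rectifier channels of muscle.

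Of the 56 genes, 48 passed the filter on low counts and were tested with edgeR's quasi-likelihood test. Benjamini-Hochberg adjusted p below 0.05, over all 13118 genes tested, counted as a call. In the libraries labelled TRa_mKO 4 members rose, Kcne1l, Kcnj3 and Kcnma1 among them, and 4 fell, Kcnc1, Kcnn2, Kcnq5 and Kcnj8. The 8 calls are 16.7% of the members tested, and among all genes tested 4.17% were called (2.52% higher and 1.65% lower). An unadjusted p below 0.05 was found for 15 members (31.2%), against 17.9% of all genes. The libraries of the genotypes did not overlap for 19 tested members, 9 higher and 10 lower (39.6%), against 23.2% of all genes (13.2% higher and 10.1% lower). The median log2 fold change (TRa_mKO over WT) was -0.14 for members and 0 for all genes, and the median of its absolute value was 0.39 for members and 0.14 for all genes. Mean levels of the members ran from 0.4 to 165 CPM, and fold changes scatter more at low counts. At an adjusted p below 0.1, where 7.12% of all genes passed, the members called were still these 8. DESeq2 also called these 8 members and limma-voom all of them but Kcne1l. The filter was passed in 3 libraries of both genotypes by 35 members, which include 6 of the 8 calls. Kcne1l and Kcnj3 passed it in all 3 TRa_mKO libraries and not in all WT libraries, so a difference in these 2 genes was favoured by the filter itself. Another 6 members, Kcna6, Kcnab2, Kcne3 and Kcnn4 among them, passed it in all 3 WT libraries and not in all TRa_mKO libraries. A lower TRa_mKO value was favoured there in the same way.

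**Figure D1:**
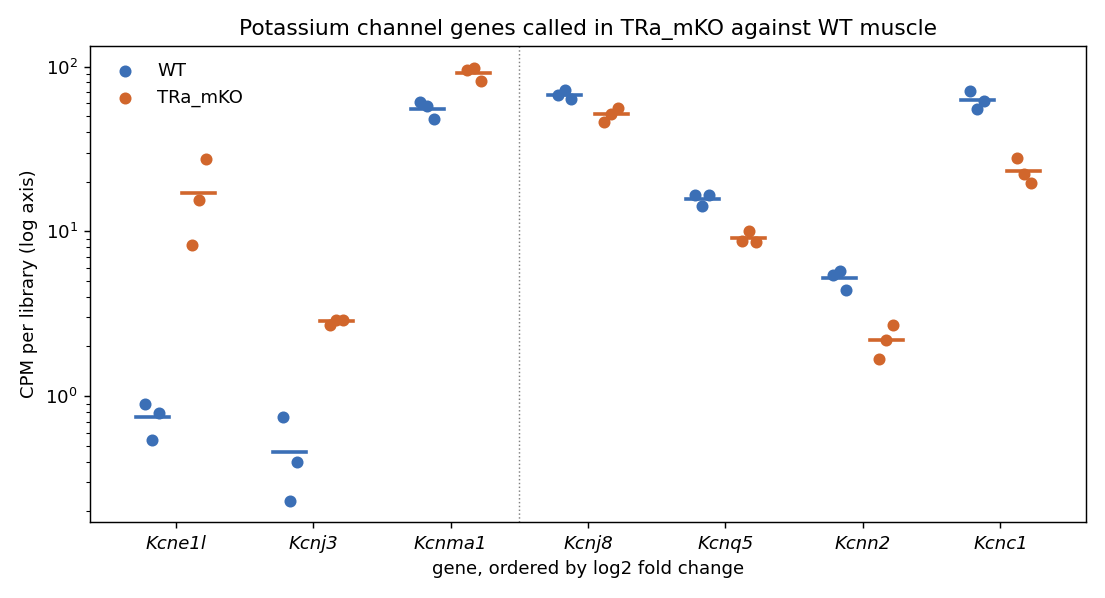
Level of 7 called potassium channel genes in each library, in CPM on a log axis. Points are libraries (WT blue, TRa_mKO orange, 3 each), and horizontal bars are means. The genes left of the dotted line were higher in TRa_mKO and those on the right lower, and for each of the 7 genes the groups do not overlap.

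The stretches of DNA before the annotated starts of 4 called genes are printed. The genes are the accessory subunit and the inward rectifier that rose most, the voltage-gated channel that fell most, and the vascular inward rectifier that fell. Whether any stretch controls its gene was not tested. The stretches come from the RefSeq promoter table of build GRCm38.p6, read 5′ to 3′ on the gene's strand. For Kcnj3 (chr2:55435720-55435969, plus strand), Kcnc1 (chr7:46396218-46396467, plus strand) and Kcnj8 (chr6:142571615-142571864, minus strand) they hold the 250 bases before the RefSeq start. For Kcne1l (chrX:142306295-142306448, minus strand) the stretch holds 154 bases and ends where the GENCODE M21 transcript begins. Bases after the RefSeq start were found in a GENCODE M21 transcript of the gene for Kcne1l, Kcnj3 and Kcnj8, but not for Kcnc1. The RefSeq start of Kcnc1 was therefore not borne out by that annotation. Capitals mark CAGCTG, an E-box of the kind that myogenic factors such as MyoD bind.

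Kcne1l: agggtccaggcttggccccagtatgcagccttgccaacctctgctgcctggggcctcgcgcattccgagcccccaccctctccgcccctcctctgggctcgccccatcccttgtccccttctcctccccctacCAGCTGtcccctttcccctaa

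Kcnj3: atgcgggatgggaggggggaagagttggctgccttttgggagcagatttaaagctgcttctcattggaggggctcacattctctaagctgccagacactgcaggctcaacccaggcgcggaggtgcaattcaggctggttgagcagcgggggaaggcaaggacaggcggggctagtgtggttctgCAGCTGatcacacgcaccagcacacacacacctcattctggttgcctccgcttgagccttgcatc

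Kcnc1: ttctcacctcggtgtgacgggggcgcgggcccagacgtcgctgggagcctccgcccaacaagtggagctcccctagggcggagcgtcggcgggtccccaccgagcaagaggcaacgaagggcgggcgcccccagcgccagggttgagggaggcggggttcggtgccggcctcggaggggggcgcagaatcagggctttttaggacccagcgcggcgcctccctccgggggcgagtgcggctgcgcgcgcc

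Kcnj8: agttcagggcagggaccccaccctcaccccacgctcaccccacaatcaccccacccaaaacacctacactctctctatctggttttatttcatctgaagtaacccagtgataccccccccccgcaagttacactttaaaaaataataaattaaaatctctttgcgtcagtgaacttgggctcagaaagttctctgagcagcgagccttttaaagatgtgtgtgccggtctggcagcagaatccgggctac

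The E-box begins at position -117 from the RefSeq start in Kcne1l and at position -65 in Kcnj3, and the printed stretches of Kcnc1 and Kcnj8 hold none. CAGCTG is its own reverse complement. It was found in 13.0% of the 32851 windows of 250 bases in the table, and in 16 of the 61 windows of the 43 members that the table lists. Of the 7 windows of the 6 called genes listed, 2 held it. Kcnma1, which also rose, had none in its stretch of 157 bases, which is not printed. AGGTCA, the core motif of thyroid hormone and other nuclear receptors, was searched on both strands. It was found in 14.0% of all windows, in 2 of the members' 61 windows and in none of the 7 windows of the 6 called genes listed. In the printed stretches the motifs therefore share no base. Both were chosen with the fold changes known, and a match is a description of letters.

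Levels between genes were compared per length, as CPM per kilobase of the longest GENCODE transcript, which all 56 members have. The most abundant was Kcna7, a voltage-gated channel of striated muscle, at 66.3 ± 8.12 CPM per kilobase in WT and 50.3 ± 6.56 in TRa_mKO (mean ± SD, n = 3 each). Kcnj11, the pore of the ATP-sensitive channel of fibres, came next with 45.3 ± 6.57 and 37.6 ± 1.29, and in each genotype its libraries lay below all those of Kcna7. Kcnj2 (27.6 ± 3.55 and 33.0 ± 7.4), Kcnj8 (26.5 ± 1.61 and 20.1 ± 1.95) and Kcnj12 (23.5 ± 0.618 and 21.3 ± 4.14) followed. In WT the libraries of Kcnj2, Kcnj8 and Kcnj12 spanned 25.3 to 31.7, 25.0 to 28.2 and 22.8 to 23.9 CPM per kilobase, so Kcnj2 and Kcnj8 overlapped and Kcnj12 lay below both. In TRa_mKO they spanned 27.3 to 41.3, 18.1 to 22.0 and 18.8 to 26.0 CPM per kilobase, so Kcnj2 lay above the other two, which overlapped. Voltage-gated pore subunits summed to 124 ± 9.16 CPM per kilobase in WT and 102 ± 7.85 in TRa_mKO, and inward rectifiers to 125 ± 7.09 and 114 ± 9.91. The accessory subunits summed to 8.89 ± 0.926 and 19.0 ± 6.58. Kcne1l rose within this class from 0.482 ± 0.118 to 11.1 ± 6.31 CPM per kilobase, which placed it near Kcnc4 (11.1 ± 2.93 in TRa_mKO).

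**Figure D2:**
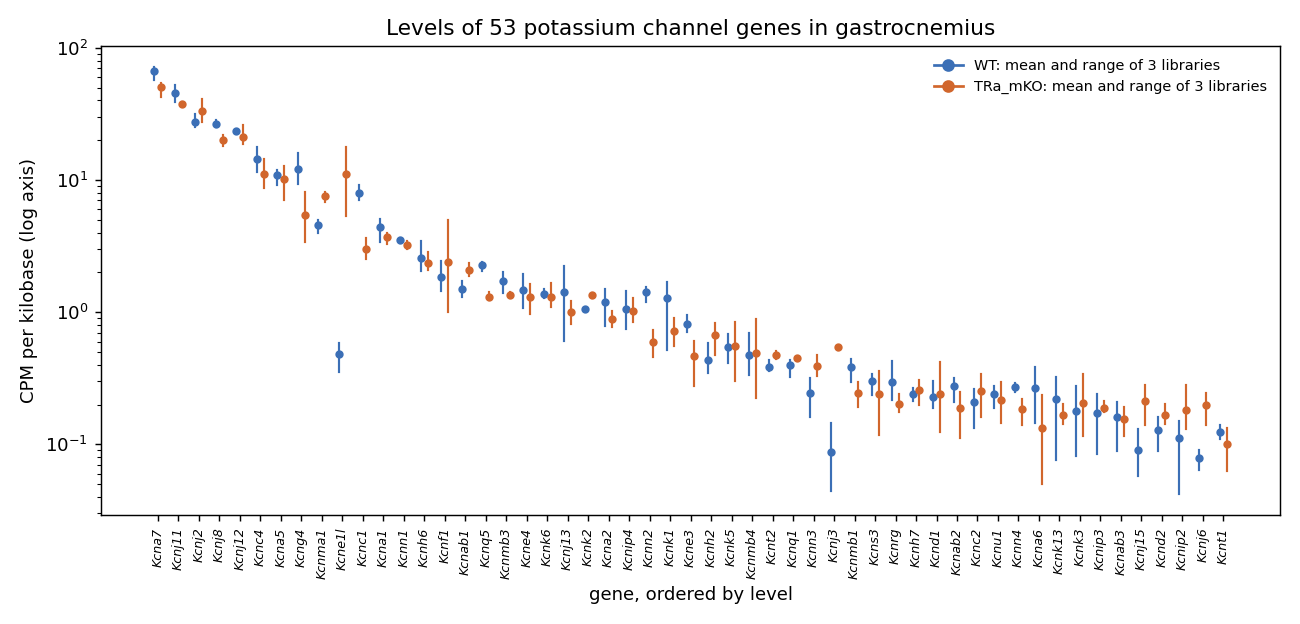
Level of 53 potassium channel genes in CPM per kilobase of transcript on a log axis, ordered by the mean over both genotypes. Points are means and lines run from the lowest to the highest of 3 libraries (WT blue, TRa_mKO orange). Kcna7 and Kcnj11 lead, and Kcne1l and Kcnj3 show the widest gaps between the genotypes.

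Among voltage-gated pore subunits, 18 members were tested, 1 rose and 2 fell, with a median log2 fold change of -0.13. Kcnc1, a fast-gating channel known in neurons for rapid repolarisation, measured 70.8, 55.0 and 61.4 CPM in WT against 28.0, 22.3 and 19.6 CPM in TRa_mKO. The lowest WT library lay well above the highest TRa_mKO library. It was 2.68-fold higher in WT (log2 fold change -1.42, SE 0.14, 95% confidence interval -1.74 to -1.11, adjusted p = 0.000763), and the call held in each of the 15 alternative fits. Kcnc2 was low and overlapped (1.05 ± 0.337 and 1.28 ± 0.462 CPM, n = 3 each, edgeR adjusted p = 0.774). Kcnc4, the most abundant gene of the subfamily per length, overlapped between genotypes (42.2, 52.5 and 65.0 CPM against 52.8, 32.1 and 37.5, adjusted p = 0.405). Kcnc1 lies between Myod1 and Sergef on chromosome 7 in the RefSeq gene table. Myod1, the myogenic regulator, measured 27.1, 29.7 and 21.9 CPM in WT against 11.7, 17.8 and 19.3 CPM in TRa_mKO and did not pass (log2 fold change -0.69, adjusted p = 0.0856), and Sergef had a log2 fold change of 0.12.

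Kcnq5 encodes a slowly opening channel of the M-current family. It measured 16.5, 14.3 and 16.6 CPM in WT against 8.71, 10.0 and 8.58 CPM in TRa_mKO. It was 1.74-fold higher in WT with no overlap (log2 fold change -0.80, SE 0.12, interval -1.07 to -0.53, adjusted p = 0.00645). Kcnq1, the cardiac and epithelial member, was low and overlapped (0.973 to 1.32 CPM in WT, 1.31 to 1.39 CPM in TRa_mKO, adjusted p = 0.811). The Kcnq5 call ended without the 2 haemoglobin-rich libraries (WT replicate 1 and TRa_mKO replicate 3), at an adjusted p = 0.064.

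All 5 Kcna genes, the family of delayed and low-threshold channels, had log2 fold changes below 0, between -1.0 and -0.12, and none was called. Among these genes, Kcna7 alone had an unadjusted p below 0.05, and DESeq2 and limma-voom called 0. Kcna7 measured 124, 154 and 156 CPM in WT against 119, 93.4 and 117 CPM in TRa_mKO, without overlap (log2 fold change -0.40, adjusted p = 0.119). Kcna5 overlapped widely, at 34.3, 26.3 and 34.3 CPM against 20.1, 30.9 and 36.3 CPM, and its sign changed in 1 of 15 alternatives, without TRa_mKO replicate 1. Kcna1, Kcna2 and Kcna6, channels of myelinated axons, were each lowest of the WT libraries in replicate 2. Kcna2, for example, measured 15.0, 9.06 and 17.4 CPM in WT against 9.01, 11.9 and 9.89 CPM in TRa_mKO. The 9 Schwann cell and nerve markers showed the same library low, with sums of 1340, 332 and 1280 CPM in WT against 517, 604 and 702 CPM in TRa_mKO. Of these markers 9 of 9 had a log2 fold change below 0 (median -0.6), 0 were called and 1 had an unadjusted p below 0.05. Kcnk1, a tandem-pore channel, was likewise lowest of the WT libraries in replicate 2, at 3.59, 1.16 and 3.76 CPM, against 1.24, 2.02 and 1.59 CPM in TRa_mKO (adjusted p = 0.33). Kcnj13, an inward rectifier of epithelia, was also lowest in WT replicate 2 among WT libraries (2.84, 0.775 and 1.85 CPM, against 1.24, 1.53 and 1.04 CPM in TRa_mKO, adjusted p = 0.562). Other members had the same lowest WT library, such as Kcnc1 (70.8, 55.0 and 61.4 CPM) and Kcnj2 (141, 137 and 173 CPM). Some did not, such as Kcnj11 (123, 164 and 141 CPM in WT). A low WT replicate 2 was thus not particular to the genes set beside the nerve markers. The part of nerve in the values of those genes was not tested.

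**Figure D3:**
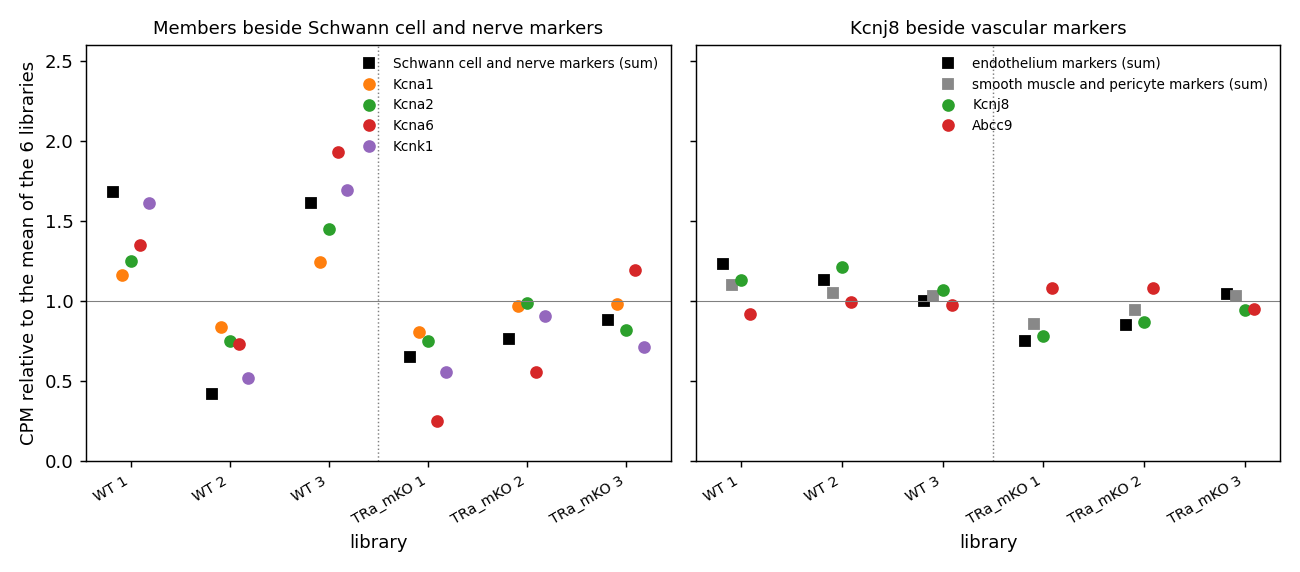
CPM of each library divided by the mean of the 6 libraries, for Schwann cell and nerve markers with Kcna1, Kcna2, Kcna6 and Kcnk1 (left), and for vascular markers with Kcnj8 and Abcc9 (right). Squares are sums of a marker list and circles are single genes. WT replicate 2 is the lowest WT library for the nerve markers (0.417) and for all 4 genes on the left. For Kcna1, Kcna2 and Kcna6, TRa_mKO replicate 1 is lower still (0.808, 0.747 and 0.251, against 0.84, 0.752 and 0.731). For the nerve markers every TRa_mKO library is higher than WT replicate 2 (0.65 to 0.882). Kcnj8 is below 1 in each TRa_mKO library.

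The Kcnh and Kcnd pore subunits showed no call. Kcnh2, which in the heart repolarises the action potential, measured 1.84 ± 0.547 and 2.84 ± 0.758 CPM (n = 3 each, adjusted p = 0.298). Kcnh6 and Kcnh7 had fractional counts, and their log2 fold changes were -0.13 and 0.13. Kcnd1 and Kcnd2, channels of the fast inactivating type, stayed at or below 2.21 CPM in every library.

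Silent modifier subunits form no channel of their own and change other voltage-gated channels when they join them. Kcng4 measured 61.0, 42.4 and 35.3 CPM in WT against 30.7, 12.9 and 19.0 CPM in TRa_mKO. The groups did not overlap, but the libraries of each genotype differed widely and the gene did not pass (log2 fold change -1.14, SE 0.35, interval -2.01 to -0.28, adjusted p = 0.166). It passed without TRa_mKO replicate 1 (adjusted p = 0.0436) and with the replicate number as a block (adjusted p = 0.0131). Kcnf1 was set apart in 1 library, at 23.7 CPM in TRa_mKO replicate 1 against 4.84 and 6.09 CPM in the other two, and 6.89 to 11.8 CPM in WT (adjusted p = 0.848). Kcns3 lay between 0.346 and 1.05 CPM.

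Among calcium- and sodium-activated pore subunits, 8 were tested, 1 rose and 1 fell. Kcnma1, the large-conductance channel opened by calcium and voltage, measured 60.6, 57.5 and 47.9 CPM in WT against 94.8, 98.5 and 82.2 CPM in TRa_mKO. The groups lay well apart, and the rise was 1.66-fold (log2 fold change 0.73, SE 0.11, interval 0.48 to 0.98, adjusted p = 0.00653), called in each of the 15 alternative fits. Its accessory subunits did not rise with a call. Kcnmb1, the beta subunit of smooth muscle, measured 1.72, 1.24 and 1.85 CPM in WT against 1.24, 0.807 and 1.04 CPM in TRa_mKO (adjusted p = 0.31). Kcnmb3 had fractional counts and overlapped (adjusted p = 0.471). Lrrc38, a gamma subunit of the same channel, had a log2 fold change of -0.14 (71.4 ± 8.53 and 64.9 ± 4.44 CPM, n = 3 each, adjusted p = 0.541).

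Of the Kcnn genes, whose channels open on calcium alone, 4 were tested, 1 fell and 0 rose. Kcnn2 measured 5.46, 5.73 and 4.42 CPM in WT against 1.68, 2.18 and 2.7 CPM in TRa_mKO. It was 2.36-fold higher in WT with no overlap (log2 fold change -1.24, SE 0.22, interval -1.74 to -0.75, adjusted p = 0.0138). The call ended without TRa_mKO replicate 2 (adjusted p = 0.0644). Kcnn3, known to appear in denervated muscle, measured 1.35, 2.09 and 2.64 CPM in WT against 3.15, 2.74 and 3.94 CPM in TRa_mKO. The groups did not overlap, yet the highest WT and the lowest TRa_mKO library nearly met, and the gene did not pass (log2 fold change 0.69, interval 0.07 to 1.3, adjusted p = 0.22). Kcnn1, the most abundant of the family, was nearly level (14.3 ± 0.647 and 13.1 ± 0.869 CPM, n = 3 each, log2 fold change -0.12, interval -0.36 to 0.12). The intermediate channel Kcnn4 stayed at or below 1.06 CPM. Of 12 tested denervation response genes, 4 rose and 0 fell, among them Chrna1, the alpha subunit of the acetylcholine receptor (24.9 ± 1.89 to 50.8 ± 3.3 CPM, n = 3 each, adjusted p = 0.000446), and Chrnd (adjusted p = 0.00162). No member of that list was lower at an unadjusted p below 0.05, and DESeq2 and limma-voom called 0 lower. The sodium-activated Kcnt1 and Kcnt2 and the sperm channel Kcnu1 showed no call, with log2 fold changes of -0.3, 0.30 and -0.15.

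Inward rectifiers counted 7 tested members, of which 1 rose and 1 fell. Kcnj3 encodes a subunit of the channel that G proteins open, known from heart atrium and brain. It measured 0.748, 0.232 and 0.396 CPM in WT against 2.71, 2.91 and 2.91 CPM in TRa_mKO, from raw counts of 10, 3 and 6 against 37, 36 and 42. The TRa_mKO libraries were alike and all far above WT, a 6.09-fold rise (log2 fold change 2.61, SE 0.35, interval 1.83 to 3.39, adjusted p = 0.0032). The call held in each of the 15 alternative fits. Kcnj6, a partner subunit of Kcnj3 in brain, fell below the filter, with raw counts of 4, 3 and 5 in WT and 7, 11 and 11 in TRa_mKO. Fitted without a filter it had a log2 fold change of 1.28 and an adjusted p = 0.215 by edgeR. Kcnj15, an inward rectifier of epithelia, was also low and did not overlap (0.748, 0.465 and 0.33 CPM in WT against 0.805, 1.21 and 1.59 CPM in TRa_mKO, adjusted p = 0.153). It passed the filter on low counts in 1 WT library and in all 3 TRa_mKO libraries, so that a difference was favoured by the filter.

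Kcnj8 encodes the pore of the ATP-sensitive channel of vascular smooth muscle and pericytes. It measured 67.0, 71.9 and 63.7 CPM in WT against 46.2, 51.5 and 56.1 CPM in TRa_mKO. Every TRa_mKO library lay below every WT library, and the gene was 1.32-fold higher in WT (log2 fold change -0.40, SE 0.10, interval -0.61 to -0.18, adjusted p = 0.0481). The call was close to the threshold and ended on leaving out any library except TRa_mKO replicate 3 (adjusted p = 0.0736 to 0.156), with the replicate block (0.107) and without the haemoglobin-rich libraries (0.0934). Of 9 smooth muscle and pericyte markers, 1 fell, Notch3 (54.9 ± 0.862 to 43.5 ± 1.9 CPM, n = 3 each, adjusted p = 0.0399), and 0 rose (median log2 fold change -0.21). The Notch3 call ended on leaving out any library except TRa_mKO replicate 1 (adjusted p = 0.0768 to 0.168), with the replicate block (0.116) and without the haemoglobin-rich libraries (0.141). Of the 9 markers 3 had a log2 fold change above 0, and Mcam was higher without overlap, at 52.0, 46.6 and 45.3 CPM in WT against 55.8, 59.6 and 61.5 CPM in TRa_mKO (edgeR adjusted p = 0.0936). Their summed level was 1710 to 1820 CPM in WT against 1420 to 1700 CPM in TRa_mKO. Of 8 endothelial markers, 7 had a log2 fold change below 0 (median -0.32) and 0 were called, with 4 at an unadjusted p below 0.05 in edgeR and 1 call by DESeq2 (Kdr, lower), and their sum was 1040 to 1290 CPM in WT against 786 to 1080 CPM in TRa_mKO. The part of vessels in the Kcnj8 value was not tested. Abcc9, a sulfonylurea receptor that can pair with Kcnj8 and its neighbour on chromosome 6, measured 367, 395 and 389 CPM in WT against 430, 431 and 379 CPM in TRa_mKO, so that the groups overlapped (log2 fold change 0.11, interval -0.12 to 0.33). The Abcc9 value is of whole muscle, and its parts from vessels and from fibres were not told apart. Ldhb, a lactate dehydrogenase subunit and the neighbour on the other side, rose (log2 fold change 0.94, edgeR adjusted p = 0.0419). Kcnj11, the fibre pore of the same channel type, measured 123, 164 and 141 CPM in WT against 119, 122 and 114 CPM in TRa_mKO (log2 fold change -0.27, interval -0.52 to -0.02, adjusted p = 0.242).

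Kcnj2 and Kcnj12, the strong inward rectifiers that hold the resting potential of fibres, were not called. Kcnj2 measured 141, 137 and 173 CPM in WT against 225, 166 and 148 CPM in TRa_mKO, and the groups overlapped (log2 fold change 0.26, interval -0.10 to 0.61). Kcnj12 measured 56.1, 58.6 and 58.8 CPM in WT against 64.1, 46.3 and 46.6 CPM in TRa_mKO (log2 fold change -0.14, interval -0.42 to 0.13). Their sum per kilobase was 51.1 ± 3.89 in WT and 54.3 ± 11.5 in TRa_mKO (n = 3 each). TRa_mKO replicate 1 was the highest of its genotype for both genes.

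**Figure D4:**
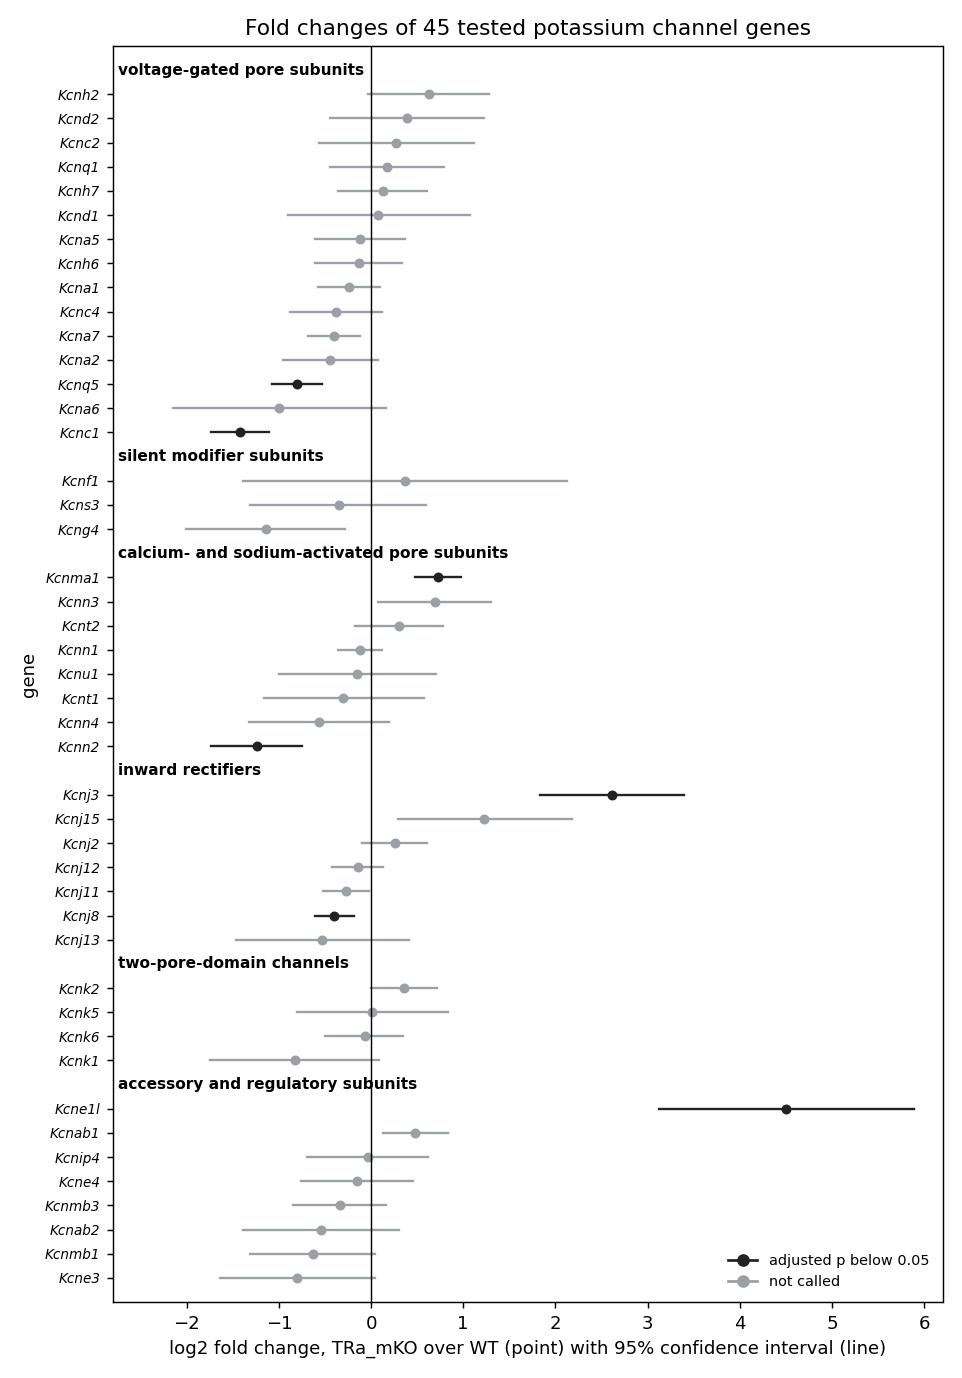
Log2 fold change (TRa_mKO over WT) of 45 tested potassium channel genes, grouped by class, with lines for the 95% confidence interval of edgeR's fit. Black marks genes with adjusted p below 0.05. Calls in both directions appear among calcium-activated and inward rectifier genes, and Kcne1l has the highest value, 4.5 with an interval of 3.12 to 5.89.

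Tandem-pore channels of the Kcnk family carry background leak. Their summed level was low, at 4.66 ± 1.1 CPM per kilobase in WT and 4.32 ± 0.685 in TRa_mKO (n = 3 each). Of 6 members 4 were tested and 0 called. Kcnk2, a stretch-sensitive leak channel, measured 3.74, 3.8 and 3.83 CPM in WT against 4.98, 4.6 and 4.98 CPM in TRa_mKO, with no overlap and an unadjusted p = 0.0506 in the edgeR fit (adjusted p = 0.28). Kcnk5 and Kcnk6 had log2 fold changes of 0.01 and -0.07. Kcnk3 and Kcnk13 did not pass the filter, with mean raw counts of 10.0 and 8.33.

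Accessory subunits were led by Kcne1l, also known as Kcne5, a single-span subunit that in expression systems inhibits Kcnq1 channels. It measured 0.898, 0.542 and 0.792 CPM in WT against 8.27, 15.5 and 27.5 CPM in TRa_mKO, from raw counts of 12, 7 and 12 against 113, 192 and 398. The TRa_mKO libraries spread over a wide range, yet the lowest of them was far above WT. The rise was 22.7-fold (log2 fold change 4.5, SE 0.58, interval 3.12 to 5.89, adjusted p = 0.0104). The call ended without any 1 of the WT libraries (adjusted p = 0.0511 to 0.0579) and with limma-voom (0.0863), while the log2 fold change stayed between 3.97 and 4.84. The neighbours Nxt2 and Acsl4 on the X chromosome had log2 fold changes of 0.04 and -0.22. Of 6 slow-fibre markers 2 rose, the slow myosin light chains Myl2 and Myl3 (edgeR adjusted p = 0.0375 and 0.0308), and this count ran from 0 to 6 over the alternative fits. The 6 markers summed to 1960, 807 and 789 CPM in WT against 3680, 3900 and 5430 CPM in TRa_mKO. Replicate 3 was the highest TRa_mKO library for both Kcne1l and this sum, and the part of slow fibres in the Kcne1l value was not tested.

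The other accessory subunits were not called. Kcne3, which pairs with Kcnc4 in skeletal muscle, measured 1.05, 0.929 and 1.25 CPM in WT against 0.366, 0.807 and 0.692 CPM in TRa_mKO, without overlap (adjusted p = 0.301). It passed the filter on low counts in all 3 WT libraries and in 1 TRa_mKO library, so that a difference was favoured by the filter. Kcne4 overlapped (3.87 ± 1.2 and 3.46 ± 0.898 CPM, n = 3 each, adjusted p = 0.839). Kcnab1, a beta subunit of Kcna channels, measured 6.44, 7.59 and 5.74 CPM in WT against 10.4, 8.88 and 8.23 CPM in TRa_mKO, without overlap (log2 fold change 0.48, interval 0.13 to 0.83, adjusted p = 0.135). Kcnab2, of the same family, had a log2 fold change of -0.54 (adjusted p = 0.502). Kcnip4 had fractional counts and nearly equal means (log2 fold change -0.03). The untested Kcnab3, Kcnip2, Kcnip3, Kcnmb4 and Kcnrg had mean raw counts of 5.5 to 10.83, and without a filter 0 of them had an unadjusted p below 0.05 in edgeR.

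Channel partner and other excitability genes were counted in the same fit, where 4.17% of all genes were called. Of 16 tested channel partner genes 0 were called, with 3 higher and 1 lower at an unadjusted p below 0.05 in edgeR. DESeq2 and limma-voom each called 1 lower. Of 33 other sarcolemmal excitability genes tested, 1 rose and 0 fell, with a median log2 fold change of 0.01. At an unadjusted p below 0.05, 2 were lower in edgeR, and DESeq2 called 1 of them lower, Scn4b (389 ± 37.5 to 290.0 ± 13.5 CPM, n = 3 each, edgeR adjusted p = 0.0567). The one that rose was Scn3b, a sodium channel beta subunit, at 2.32, 3.1 and 2.51 CPM in WT against 5.27, 4.68 and 5.26 CPM in TRa_mKO (log2 fold change 0.94, adjusted p = 0.0225), and its call ended when any library but WT replicate 2 or TRa_mKO replicate 1 was left out (adjusted p = 0.0634 to 0.0825). Scn4a and Clcn1, the main sodium and chloride channels of the fibre, had log2 fold changes of 0.14 and 0.02.

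**Figure D5:**
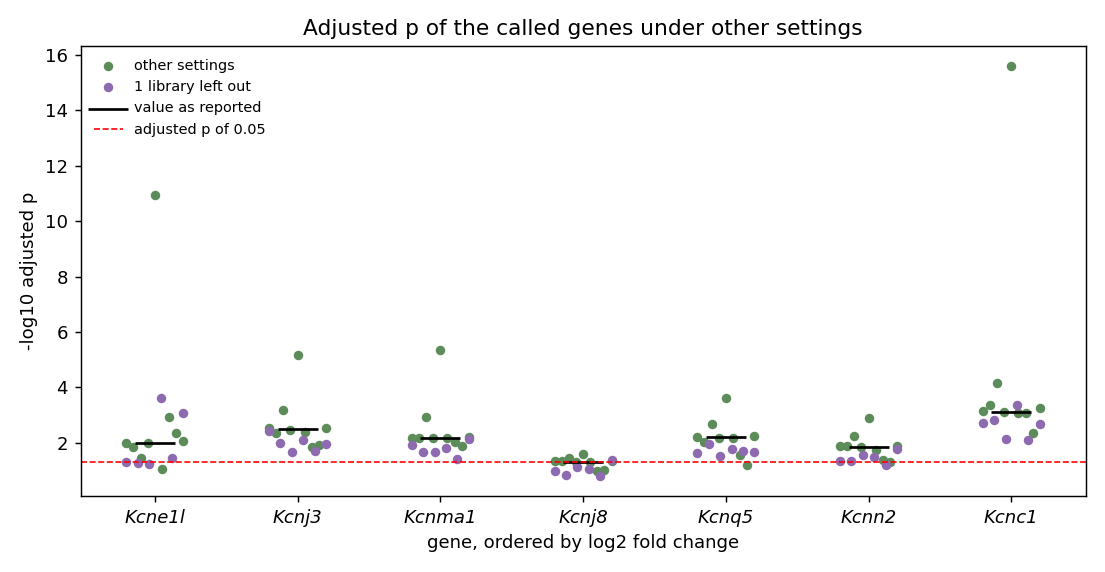
Adjusted p of 7 called genes on a -log10 axis, ordered by log2 fold change. Black bars are the values as reported, purple points leave out 1 library, green points are the other alternatives (the highest green point of each gene is DESeq2), and the dashed line is 0.05. Kcnc1, Kcnj3 and Kcnma1 stay above the line at every point, and Kcnj8 sits on it.

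In GENCODE M21, exons of 18 members overlap those of a gene on the opposite strand, Kcnma1, Kcnj3, Kcnn2 and Kcnq5 among them. The libraries are stranded, but no source used here gives the strand setting of the counting. Reads of such pairs may therefore not be separated. Of the members, 6 had fractional counts in some library, and none of the 8 called genes is among them. Counting can give fractions when reads are shared with other features, but their source was not stated.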

How the data were processed

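Poly(A)-selected, stranded, paired-end libraries of 6 muscles were analysed. The authors deposited 1 table of estimated counts per gene, which hold fractions for some genes. Trimmomatic 0.39, featureCounts, FastQC 0.11.9 and MultiQC 1.12 appear in the submitters' processing notes, with several genome builds. The build behind the counts, the aligner, the gene annotation and the strand option of counting were not given in the sources used here. Counts were rounded and fitted in edgeR 4.0.16 (R 4.3.3) with filterByExpr at a minimum count of 10, TMM and a robust, two-sided quasi-likelihood test of genotype, with Benjamini-Hochberg adjustment over 13118 genes. Standard errors were taken from the F statistic. DESeq2 1.42.0, limma-voom (limma 3.58.1), other scalings and filters, a replicate block and left-out libraries were alternatives. On simulated data for this comparison with 13118 genes, 54.8% of genes changed 1.5-fold and 84.4% of those changed 2-fold were recovered, and 6.81% of calls were false. The changed genes were drawn from those with a mean above 1 CPM, and several tested members lie below that level. A few genes are not reported here by name or in figures, but they are kept in all counts and sums. The members and lists were chosen with earlier results of these data known. Named genes were the called members, those with an unadjusted p below 0.05, the most abundant of each subfamily, and called genes of other lists, with further members where their subfamily was described. Nothing beyond the word littermates says how the animals were paired or housed. The p-values weigh the difference between genotypes against the spread among libraries of a genotype, which edgeR estimates with information from all genes.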

Additional observations from a re-analysis of the deposited data

How the results depend on the processing

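Kcnc1, Kcnj3 and Kcnma1 were called in 15 of 15 alternatives, and each of the 8 called genes kept its direction in all of them. Among potassium channel genes, 2 were called lower without the haemoglobin-rich libraries (WT replicate 1 and TRa_mKO replicate 3), and 2 to 4 when 1 library was left out. Over all genes, calls higher numbered 213 with library size only, 216 with the replicate block and 177 without the haemoglobin-rich libraries, and 135 to 331 with 1 library left out. Calls lower numbered 141 with the block and 90 without the haemoglobin-rich libraries, and 74 to 264 with 1 library left out. Slow-fibre markers called higher numbered 0 with library size only, 0 with no filter, 0 with the block, 5 with DESeq2, 6 without the haemoglobin-rich libraries and 0 to 6 with 1 library left out. Smooth muscle and pericyte markers called lower, and excitability genes called higher, numbered 0 with the block, 0 without the haemoglobin-rich libraries and 0 to 1 with 1 library left out. Excitability genes called lower numbered 1 with library size only, with no filter and with DESeq2. The cause was not tested in these cases, though fewer samples enter where libraries are left out.

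Of the 48 tested members, 13 changed sign under at least 1 alternative, and 0 of the 13 were called in the reported fit or with the changed sign. They include Kcna5, Kcnc2, Kcnh7, Kcnj13, Kcnk5 and Kcne4, and the 7 that follow. Kcnd1 had a log2 fold change of -0.07 with limma-voom, -0.69 without the haemoglobin-rich libraries and -0.59 to 0.4 with 1 library left out. Kcnip4 had 0.0 with limma-voom, 0.39 without the haemoglobin-rich libraries and -0.24 to 0.25 with 1 library left out. With 1 library left out, Kcnf1 ranged from -0.71 to 0.72, Kcnh6 from -0.29 to 0.12, Kcnk6 from -0.28 to 0.05 and Kcnu1 from -0.46 to 0.07. Kcns3 had 0.05 without the haemoglobin-rich libraries.

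No pairing by replicate number was seen in the counts. Deviations of same-numbered libraries from their genotype mean correlated at -0.176, 0 and -0.006, and 0 of 6 libraries correlated best with their own number. With 3 libraries per genotype, these correlations cannot show whether same-numbered animals were related or handled together. With the replicate block, Kcnj8 had an adjusted p of 0.107 and Kcng4 one of 0.0131. The lowest members rest on few counts, and recovery by expression level was not tested.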
